A study of Homo sapiens with 10 samples.

Results

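Sphingolipid and ceramide metabolism was followed through 38 genes, taken by symbol from a list of enzymes and regulators of the pathway, out of the 60558 genes in each table. All 38 were found once. The RNA came from PC3 cells, a wild-type line started from a bone metastasis of a human prostate cancer that grows without androgen. In 5 libraries the cells had spent 3 days in coculture with adipocytes of human bone marrow and in 5 they had not, with no further treatment named, and each batch number from 1 to 5 is carried by 1 library of each group. The study is set up to ask what marrow adipocytes change in these cancer cells. PC3 is a single line. The sources used here do not give the adipocyte donors or how the cancer cells were parted from the adipocytes. They also do not say that libraries of a group came from separate cultures, so the p-values measure the spread between libraries.

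Sphingolipids are built in the endoplasmic reticulum, where serine palmitoyltransferase joins serine to a fatty acyl-CoA and ceramide is formed after a reduction, an acylation and a desaturation. Ceramide is then turned into sphingomyelin or glycolipids in the Golgi, and the lipids return to ceramide, mostly in lysosomes. Ceramidases release sphingosine, which sphingosine kinases phosphorylate to the signalling lipid sphingosine 1-phosphate, and a lyase cuts that lipid as the only way out of the pathway. In tumour cells ceramide is best known for promoting cell death and sphingosine 1-phosphate for promoting survival and migration.

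Each library held 39074949 to 51515712 expected counts, the reads that RSEM assigned to genes. The epithelial markers EPCAM, KRT8, KRT18 and CDH1 were all detected, and all 4 fell (summed level 541.5 to 609.7 without and 332.7 to 402.6 TPM with coculture). KLK2 and KLK3, luminal prostate genes that PC3 is known to lack, lay at 0.07 TPM or less in all 10 libraries. TPM is the level of a gene per length, scaled to the same sum in each library. Of 10 adipocyte markers 3 rose and 1 fell, and their summed level was 69.3 to 128 TPM without and 269.6 to 520 TPM with coculture, mostly FABP4. The 3 that rose were FABP4 (means 66.7 and 339 TPM), PLIN4 (5.18 and 10.6 TPM) and LIPE (1.62 and 2.46 TPM). CIDEC fell (5.9 and 3.05 TPM), and CFD (6.07 and 5.62 TPM) was not called. ADIPOQ and LEP stayed at 0.01 TPM or less in all libraries and PLIN1 at 0.23 TPM or less. AQP7 (0.066 and 0.22 TPM) and GPD1 (0.058 and 0.036 TPM) were not tested. Of 9 markers of stroma, 5 were tested and 4 fell (summed level 4.68 to 5.94 and 1.29 to 2.26 TPM). Blood markers summed to 35.4 to 39.9 and 44.6 to 49.5 TPM, nearly all of it CD68, and endothelial markers to 7.82 to 11.9 and 4.21 to 6.84 TPM. The part of other cells in the changes below was not tested. In bulk RNA, fewer cells of a type and less RNA per cell cannot be told apart.

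Increases outnumbered decreases among the genes called, and the 5 largest increases were those of GALC, SPHK1, ARSA, NEU1 and SGPL1, which act in lysosomal breakdown or on sphingosine 1-phosphate. Of the 38 genes, 34 passed the filter on low counts, and of these 15 rose and 3 fell at a Benjamini-Hochberg adjusted p under 0.05 over all 15690 genes tested (edgeR's quasi-likelihood test, QL, on TMM-scaled counts). That is 44.1% higher and 8.82% lower, where 17.9% of all genes tested were higher and 15.8% lower. The 38 genes were chosen with earlier results of these data known, so these shares are no independent support for a change of the pathway. The median log2 fold change, cocultivated over non-cocultivated, was 0.14 over the 34 genes and -0.01 over all genes tested. With the batch as a block, 19 of the 34 were higher and 6 lower, against 22.2% higher and 22.2% lower of all genes. Scaled by library totals in place of TMM, which lowers the median log2 fold change of all genes to -0.063, the count became 14 higher and 6 lower. From TPM with limma it was 11 higher and 3 lower. The number of all genes called in either direction moved too. It was 5279 in the main fit, 5771 with library totals and 4715 with limma on log2(TPM + 1). The TPM values of the groups did not overlap for 5 genes that were higher and 2 that were lower, and among all genes tested this held for 8.46% and 14.2%. Below, fold changes are log2 values ± SE and mean levels are ± SD (n = 5 in each group, non-cocultivated first). Most changes were small: GALC alone of the 34 moved by more than 2-fold.

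**Figure D1:**
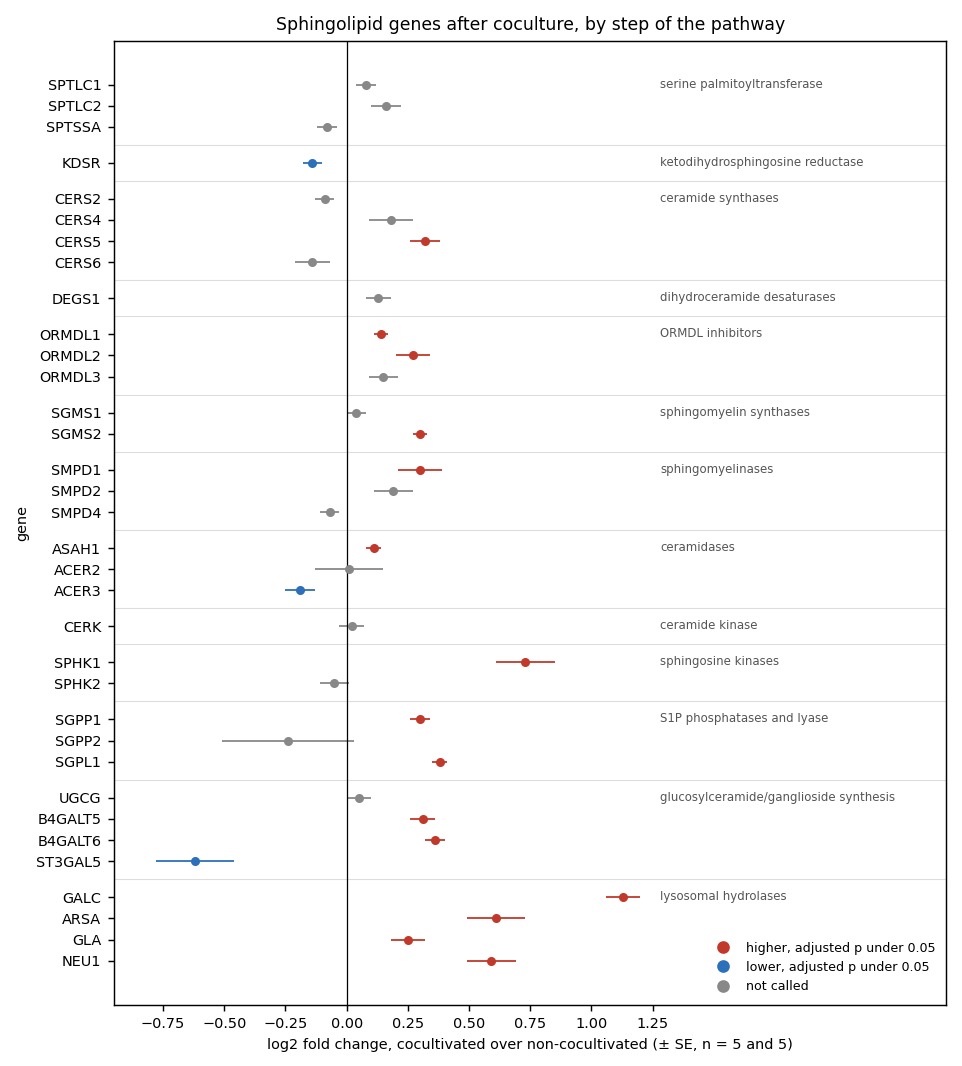
Log2 fold change (x axis, cocultivated over non-cocultivated, edgeR on counts, with SE, n = 5 and 5) of the 34 tested sphingolipid genes, grouped by step of the pathway (y axis). Red and blue points passed an adjusted p of 0.05 as higher and lower, and the 4 lysosomal glycolipid hydrolases are all red, with GALC highest at 1.13.

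Of 6 tested hydrolases of the lysosome all rose on TMM-scaled counts, where 17.9% of all genes tested were higher. The 4 glycolipid hydrolases described here held their calls in every setting run. SMPD1 and ASAH1, described with their steps, lost theirs in some settings. GALC (ENSG00000054983), which removes galactose from galactosylceramide, stood at 2.95, 2.67, 2.95, 2.69 and 2.19 TPM in non-cocultivated replicates 1 to 5 and at 5.32, 5.26, 5.63, 5.02 and 5.33 TPM in the cocultivated ones. The lowest cocultivated library lay well above the highest other one, and the fold change was 1.13 ± 0.07 on the log2 scale (2.19-fold, edgeR QL adjusted p 8.83e-08). ARSA, the sulfatase that opens the breakdown of sulfatide, held 4.43, 3.57, 4.11, 4.11 and 4.44 TPM without and 6.38, 5.44, 5.48, 5.05 and 7.65 TPM with coculture. Its groups did not overlap either (0.61 ± 0.12, edgeR QL adjusted p 0.00159), and cocultivated replicate 5 was its highest library. NEU1, a sialidase, was measured at 24.19, 24.99, 24.35, 23.49 and 28.95 and then 34.48, 38.07, 34.43, 31.07 and 41.18 TPM. It rose 1.5-fold (0.59 ± 0.10, edgeR QL adjusted p 0.000412), with every cocultivated library above every other. GLA, which takes the terminal galactose from globotriaosylceramide and was the most abundant of these hydrolases, held 46.92, 52.36, 51.38, 51.34 and 57.38 TPM without and 57.3, 57.82, 58.82, 56.37 and 59.34 TPM with coculture. The increase of GLA was smaller (0.25 ± 0.07, edgeR QL adjusted p 0.0112), present in 5 of 5 batches, and non-cocultivated replicate 5 overlapped the cocultivated range. With the batch as a block these 4 calls stayed.

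**Figure D2:**
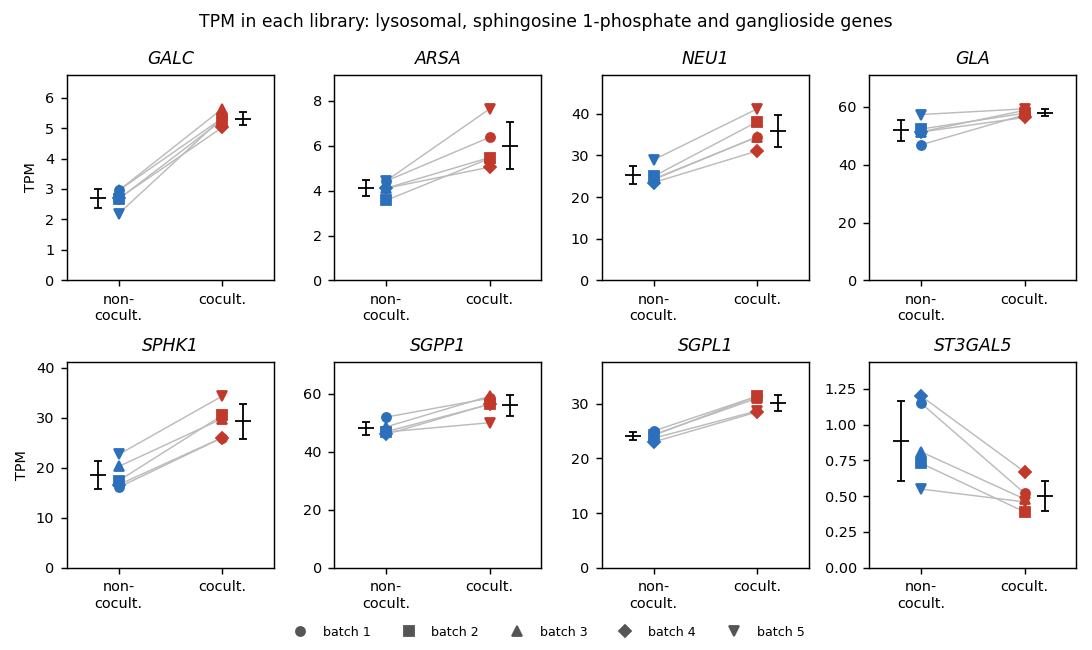
TPM (y axes from 0) of 8 genes in each library, non-cocultivated in blue and cocultivated in red, with marker shapes and grey lines for the 5 batches and black bars for the mean and SD of each group. GALC, ARSA, NEU1, SPHK1 and SGPL1 show no overlap between groups, while GLA, SGPP1 and ST3GAL5 overlap.

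The proximal promoters of NEU1 and GLA are shown because both lysosomal genes rose and 1 of the windows holds an E-box, and that of SGPL1 because it had the smallest adjusted p outside the lysosomal group. They run from 250 bases before to 50 after the RefSeq transcript start (RefSeq, GRCh38.p14, chr6:31862772-31863071 on the minus strand, chrX:101407876-101408175 on the minus strand and chr10:70815698-70815997 on the plus strand), and capitals mark matches to TCACGTG.
NEU1: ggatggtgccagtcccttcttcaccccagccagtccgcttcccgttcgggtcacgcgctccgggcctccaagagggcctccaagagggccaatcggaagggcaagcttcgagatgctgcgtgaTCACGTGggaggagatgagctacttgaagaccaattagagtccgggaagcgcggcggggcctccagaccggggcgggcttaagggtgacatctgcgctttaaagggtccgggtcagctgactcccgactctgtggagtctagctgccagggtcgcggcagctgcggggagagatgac
GLA: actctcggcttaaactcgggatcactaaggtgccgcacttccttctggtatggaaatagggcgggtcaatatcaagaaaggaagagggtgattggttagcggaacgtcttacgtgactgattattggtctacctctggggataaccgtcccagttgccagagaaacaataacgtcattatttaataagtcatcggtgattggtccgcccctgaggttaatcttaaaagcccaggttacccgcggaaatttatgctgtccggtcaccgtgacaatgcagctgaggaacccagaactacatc
SGPL1: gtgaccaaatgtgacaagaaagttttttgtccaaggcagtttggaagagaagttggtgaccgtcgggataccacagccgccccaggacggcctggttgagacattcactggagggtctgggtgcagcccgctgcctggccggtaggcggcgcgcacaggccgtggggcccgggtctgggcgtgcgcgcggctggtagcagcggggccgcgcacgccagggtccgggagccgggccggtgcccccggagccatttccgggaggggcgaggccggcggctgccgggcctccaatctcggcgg
Promoter windows were at hand for 28 of the 38 genes (46 windows). On both strands they were searched for CACGTG, the E-box core bound by the lysosomal regulator TFEB among many factors, for TCACGTG, which contains that core, for TGATGNAA, bound by ATF4 with a CEBP partner, and for the PPAR-RXR direct repeat. CACGTG and TCACGTG were found in 1 of the 46 windows, that of NEU1, at the capitals above. They occur in 7.26% and 3.71% of all 35116 windows. TGATGNAA was found in 1 of the 46, a window of SGPP2 (3.62% of all windows). The PPAR-RXR direct repeat was found in none (0.02% of all windows). A match is a run of letters, and windows of this length say nothing of sites elsewhere.

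HEXA, a hexosaminidase subunit needed to degrade the ganglioside GM2, was nearly absent in both groups. Its expected counts were 3.06 to 12.4 per library and its level 0.02 to 0.07 TPM, so it was not tested. The protein-coding genes next to HEXA on chromosome 15 in RefSeq order, looked at after the values of HEXA were seen, were low as a run: PARP6 at 0.02 TPM or less, CELF6 at 0.01 TPM or less and TMEM202 at 0 in all 10 libraries. The genes that frame this run were expressed, PKM at 1263 to 1685 TPM and ARIH1 at 33.2 to 41.7 TPM. Beyond them, GRAMD2A (0 TPM), GOLGA6B (0.12 TPM or less) and HIGD2B (0.04 TPM or less) were low too. MYO9A, SENP8, BBS4 and ADPGK were at 1.95 TPM or more. PARP6 and HEXA are broadly expressed in human tissues, while TMEM202 and CELF6 are more restricted. The counts of HEXA overlapped between the groups, and the cause of its low level was not tested.

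**Figure D3:**
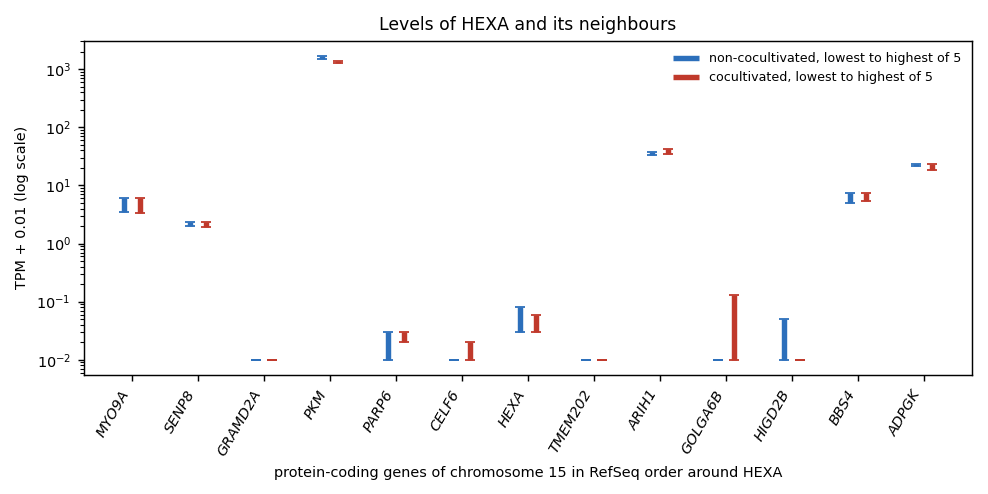
Lowest to highest TPM of 5 libraries (y axis, TPM + 0.01, log scale) for HEXA and the 6 protein-coding genes listed on each side of it on chromosome 15 in RefSeq order (x axis), non-cocultivated in blue and cocultivated in red. PARP6, CELF6, HEXA and TMEM202 lie between PKM and ARIH1 and are all below 0.1 TPM in both groups.

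Of the 5 listed genes of sphingosine 1-phosphate turnover 3 rose, where 17.9% of all genes tested were higher. The 3 act on both sides of that lipid. The kinase SPHK1 (ENSG00000176170), which makes it, stood at 16.09, 17.41, 20.26, 16.61 and 22.67 TPM in non-cocultivated replicates 1 to 5 and at 26.01, 30.49, 29.83, 26.03 and 34.34 TPM in cocultivated ones. The groups were apart, with a fold change of 0.73 ± 0.12 (1.65-fold, edgeR QL adjusted p 0.000515), and replicate 5 was the highest in each group. SPHK2, its mostly nuclear and mitochondrial relative, had 8.75 ± 0.406 and 8.14 ± 0.578 TPM (log2 fold change -0.05 ± 0.06, edgeR QL adjusted p 0.542). SPHK1 made up 65.9% to 71.4% of the kinase TPM without and 74.9% to 81.4% with coculture. The lyase SGPL1 (ENSG00000166224), whose promoter is printed above, held 25.03, 24.24, 24.37, 23.03 and 23.71 TPM without and 31.39, 31.41, 31.03, 28.51 and 28.71 TPM with coculture. It rose 1.31-fold (0.38 ± 0.03, edgeR QL adjusted p 2.32e-06) with no overlap and in 5 of 5 batches. SGPP1, a phosphatase that returns the lipid to sphingosine, was measured at 51.89, 46.89, 48.54, 45.96 and 46.75 and 58.41, 56.28, 59.12, 56.41 and 49.96 TPM. Its change was 0.30 ± 0.04 (edgeR QL adjusted p 3.42e-05), and cocultivated replicate 5 lay within the range of the other group. SGPP2, the second phosphatase, was low, with 0.06 to 0.13 and 0.05 to 0.14 TPM and was not called (-0.24 ± 0.27, edgeR QL adjusted p 0.55).

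Among ceramidases, which feed sphingosine to these kinases, the directions differed. The lysosomal enzyme ASAH1 had 52.0, 50.4, 50.99, 52.96 and 51.42 TPM without and 56.58, 55.78, 53.66, 50.55 and 53.24 TPM with coculture. This was an increase of 0.11 ± 0.03 (edgeR QL adjusted p 0.0131), and the ranges overlapped. It was not called with library totals (0.06, edgeR QL adjusted p 0.156), with no filter (0.10, edgeR QL adjusted p 0.157) or from TPM (limma adjusted p 0.235). ACER3, an alkaline ceramidase, fell by 0.19 ± 0.06 on the log2 scale (edgeR QL adjusted p 0.022) from means of 10.8 ± 0.876 and 9.65 ± 1.43 TPM. Its call was lost without non-cocultivated replicate 2 (edgeR QL adjusted p 0.0561), cocultivated replicate 2 (0.0616) or non-cocultivated replicate 4 (0.0547), and from TPM (limma adjusted p 0.255). The mean RSEM effective length of ACER3 was 5866 bases without and 5481 bases with coculture. ACER2, the Golgi ceramidase, stood at 0.892 ± 0.14 and 0.85 ± 0.129 TPM with a fold change of 0.01 ± 0.14. The ceramide kinase CERK held 8.35, 6.91, 7.63, 7.25 and 7.35 TPM and 6.7, 6.74, 7.02, 6.09 and 6.81 TPM. On counts its change was 0.02 ± 0.05 (edgeR QL adjusted p 0.79), but from TPM it was -0.15 (limma adjusted p 0.125), a gap that comes with a mean RSEM effective length of 3417 bases without and 3714 bases with coculture.

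The first step of synthesis changed little in the listed subunits of serine palmitoyltransferase, and none of the 3 tested ones was called by edgeR QL or by DESeq2, although SPTLC2 had an unadjusted p under 0.05. SPTLC1, the subunit that anchors the enzyme, was measured at 57.29, 54.48, 55.97, 54.25 and 52.51 TPM without and 60.83, 56.28, 57.95, 55.74 and 48.92 TPM with coculture (0.08 ± 0.04, edgeR QL adjusted p 0.12). The catalytic subunit SPTLC2 had 20.6 ± 1.98 and 21.6 ± 2.46 TPM (0.16 ± 0.06, edgeR QL adjusted p 0.0507). The small activating subunit SPTSSA stood at 48 ± 2.79 and 43.2 ± 2.95 TPM (-0.08 ± 0.04, edgeR QL adjusted p 0.134). All 3 passed with the batch as a block, SPTLC1 and SPTLC2 as higher (edgeR QL adjusted p 0.0387 and 0.0135) and SPTSSA as lower (0.0489). Single libraries mattered at this size of change: SPTLC1 was called without cocultivated replicate 5 (edgeR QL adjusted p 0.0112), SPTLC2 without that library (0.0219) or without non-cocultivated replicate 1 (0.0128), and SPTSSA without non-cocultivated replicate 5 (0.0438). SPTLC3, the alternative catalytic subunit, was barely expressed, with 0.38, 0.08, 0.18, 0.15 and 0.15 TPM without and 0.04, 0.04, 0.07, 0.13 and 0.04 TPM with coculture, and was left out by the filter on low counts. It was lower in 5 of 5 batches. With no filter its log2 fold change was -1.42 ± 0.37 (edgeR QL adjusted p 0.00898) and with DESeq2 it was -1.44 ± 0.48 (adjusted p 0.0116), from means of 13.2 and 4.42 counts.

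SPTSSB, the other small subunit and not on the list of 38, changed far more. It stood at 22.17, 18.56, 14.19, 20.66 and 13.43 TPM without and 5.73, 1.69, 2.89, 4.87 and 1.76 TPM with coculture. The groups were far apart (-2.43 ± 0.15, edgeR QL adjusted p 1.21e-07). SPTSSB made up 22.3% to 30.5% of the TPM of both small subunits without coculture and 3.75% to 10.9% with it, and their sum went from 57.5 to 73.7 TPM down to 40.4 to 52.4 TPM. SPTSSB is known to widen the enzyme's choice of acyl-CoA towards longer chains.

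**Figure D4:**
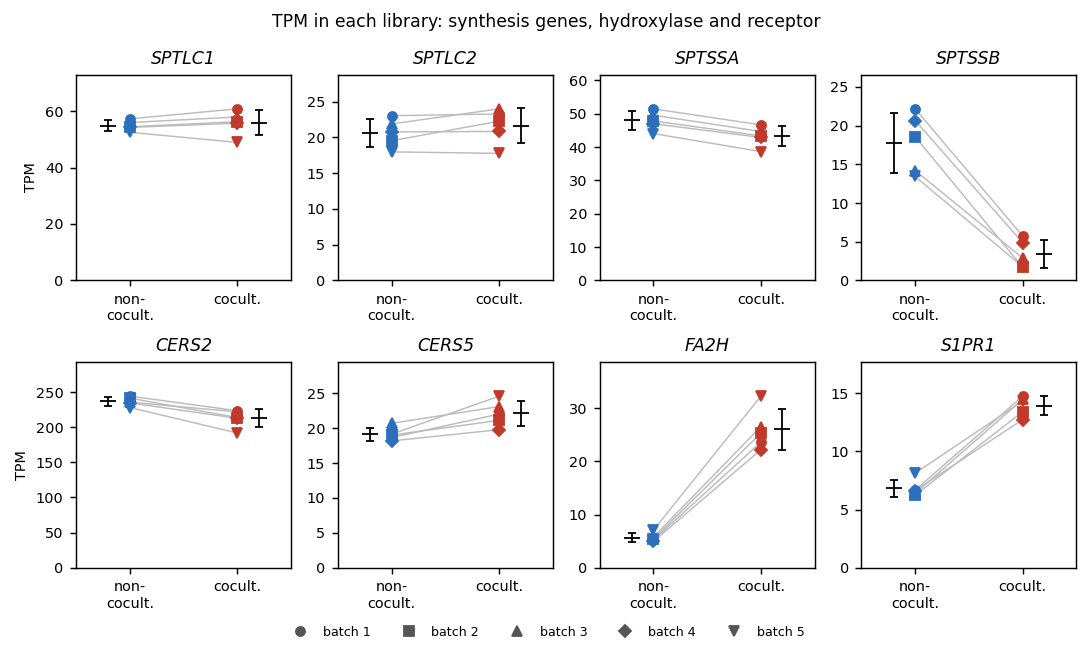
TPM (y axes from 0) of 8 genes of synthesis, hydroxylation and reception in each library, non-cocultivated in blue and cocultivated in red, with marker shapes and grey lines for batches and black bars for mean and SD. SPTLC1, SPTLC2 and CERS5 overlap between groups and so does SPTSSA, while CERS2 and SPTSSB are lower and FA2H and S1PR1 higher in all cocultivated libraries.

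Among the ORMDL genes, whose proteins hold serine palmitoyltransferase in check when ceramide is plentiful, the RNA of 2 of 3 rose. Of all genes tested 17.9% were higher, and protein was not measured. ORMDL1, the most abundant, had 75.13, 76.4, 80.53, 75.41 and 71.51 TPM without and 86.16, 76.0, 78.45, 74.82 and 83.43 TPM with coculture. It rose by 0.14 ± 0.03 (edgeR QL adjusted p 0.00771), with overlapping ranges, and was not called with no filter (edgeR QL adjusted p 0.0718) or from TPM (0.07, limma adjusted p 0.278). ORMDL2 rose by 0.27 ± 0.07 (edgeR QL adjusted p 0.013) from means of 48.9 ± 1.74 and 57.5 ± 5.87 TPM, and ORMDL3, at 17 ± 0.779 and 18.7 ± 2.35 TPM, had 0.15 ± 0.06 (edgeR QL adjusted p 0.0974, 0.0475 with the batch as a block). KDSR, the reductase that follows serine palmitoyltransferase, was measured at 14.92, 14.48, 14.7, 13.44 and 15.09 TPM without and 13.02, 13.35, 15.09, 12.18 and 14.1 TPM with coculture. It fell by 0.14 ± 0.04 (edgeR QL adjusted p 0.0213). This call was lost without cocultivated replicate 2 (edgeR QL adjusted p 0.0525) or non-cocultivated replicate 3 (0.0507), with no filter (0.0565) and from TPM (limma adjusted p 0.281). The mean RSEM effective length of KDSR was 2742 bases without and 2545 bases with coculture. DEGS1, the desaturase that completes ceramide, had 100.25, 102.84, 106.93, 98.55 and 104.7 and 103.42, 108.42, 115.03, 102.34 and 102.95 TPM. Its change of 0.13 ± 0.05 was just short of the threshold (edgeR QL adjusted p 0.0525) and passed with the batch as a block (0.00258) and without cocultivated replicate 1 (0.00906). DEGS2, which also hydroxylates to phytoceramide, lay at 0.16 TPM or less in all libraries and was not tested.

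The ceramide synthases differ in the fatty acid they attach, CERS2 preferring very long chains and CERS5 and CERS6 palmitoyl chains. CERS2, the most abundant of all 38 genes, stood at 244.2, 241.37, 235.62, 234.53 and 227.91 TPM without and 223.41, 213.63, 221.74, 212.65 and 191.66 TPM with coculture. These TPM ranges did not overlap and limma on TPM called it as lower (-0.16, adjusted p 0.0157), whereas TMM-scaled counts gave -0.09 ± 0.04 (edgeR QL adjusted p 0.105, 0.034 with the batch as a block) and counts scaled by library totals -0.14 (edgeR QL adjusted p 0.00541). CERS5 held 18.68, 19.02, 20.71, 18.19 and 19.17 and 22.04, 21.14, 23.12, 19.8 and 24.61 TPM. It was the one synthase called on TMM-scaled counts without the block (0.32 ± 0.06, edgeR QL adjusted p 0.00182), higher in 5 of 5 batches, with ranges that overlapped. CERS6 had 25.7 ± 1.34 and 22.2 ± 3.08 TPM (-0.14 ± 0.07, edgeR QL adjusted p 0.125, 0.00941 with the batch as a block) and CERS4 had 8.27 ± 0.41 and 8.76 ± 1.29 TPM (0.18 ± 0.09, edgeR QL adjusted p 0.142). The share of CERS5 in the TPM of the 4 synthases was 6.28% to 7.11% without and 7.51% to 10.1% with coculture, and that of CERS2 80.9% to 82.0% and 78.5% to 80.7%. In GENCODE v29, 41.4% of the exon bases of CERS6 and 20.4% of those of CERS2 overlap genes on the other strand (CERS6-AS1 and SETDB1), so both levels are uncertain because the strand setting is not given. The same holds for ORMDL2 (DNAJC14, 32.7%), SMPD2 (PPIL6, 20.3%), SPHK2 (DBP, and RPL18 over 4.1% of its exon bases at a mean of 1305 TPM) and SMPD4 (MZT2B, 11.1%).

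In sphingomyelin turnover, the synthase SGMS2, found at the plasma membrane and Golgi, stood at 20.44, 19.56, 20.41, 18.96 and 19.86 TPM without and 22.4, 21.63, 24.28, 22.22 and 18.01 TPM with coculture. On counts it rose by 0.30 ± 0.03 (edgeR QL adjusted p 2.42e-05), higher in 5 of 5 batches. From TPM the change was 0.12 and was not called (limma adjusted p 0.227), and the mean effective length was 3500 bases without and 3774 bases with coculture. SGMS1, the Golgi synthase, had 17 ± 1.07 and 16.8 ± 1.63 TPM (0.04 ± 0.04, edgeR QL adjusted p 0.483). The lysosomal sphingomyelinase SMPD1 was measured at 9.18, 9.57, 10.6, 9.28 and 9.29 and 10.95, 13.77, 11.43, 8.81 and 11.79 TPM. It rose by 0.30 ± 0.09 (edgeR QL adjusted p 0.0159) with cocultivated replicate 4 below all non-cocultivated libraries, and it was not called from TPM (limma adjusted p 0.119). SMPD4, a neutral sphingomyelinase of the endoplasmic reticulum and nuclear envelope, held 50.35, 48.77, 50.25, 49.48 and 53.11 TPM and 47.08, 45.94, 44.32, 43.15 and 44.71 TPM. As for CERS2, its TPM did not overlap and limma on TPM called it lower (-0.16, adjusted p 0.00806), while TMM-scaled counts gave -0.07 ± 0.04 (edgeR QL adjusted p 0.209) and counts scaled by library totals -0.13 (edgeR QL adjusted p 0.0113). Of its 75-base windows 10.8% occur in other genes, as do 8.18% of those of ACER2, so their levels are uncertain on that account too. SMPD2, a neutral sphingomyelinase, stood at 4.06 ± 0.371 and 4.32 ± 0.29 TPM and had 0.19 ± 0.08 (edgeR QL adjusted p 0.0822, 0.0388 without cocultivated replicate 3), and SMPD3, with 2.00 to 6.00 counts per library, was not tested.

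In glycolipid synthesis 2 of 4 tested listed genes rose and 1 fell, where 17.9% of all genes tested were higher and 15.8% lower. The 2 that rose are the lactosylceramide synthases. B4GALT5 stood at 30.73, 29.49, 29.61, 30.03 and 26.8 TPM without and 37.05, 35.81, 37.73, 34.53 and 28.63 TPM with coculture. It rose 1.24-fold (0.31 ± 0.05, edgeR QL adjusted p 0.000447), with cocultivated replicate 5 inside the other range. B4GALT6, its paralog, had 15.26, 13.76, 14.43, 16.08 and 13.8 and 20.4, 17.33, 18.05, 16.16 and 15.92 TPM. It rose 1.29-fold (0.36 ± 0.04, edgeR QL adjusted p 1.79e-05), in 5 of 5 batches and with a slight overlap of the ranges. B4GALT5 made up 65.1% to 68.2% of the TPM of both without and 64.3% to 68.1% with coculture. UGCG, which makes glucosylceramide one step earlier, had 14.6 ± 1.05 and 14.3 ± 1.22 TPM and was not called (0.05 ± 0.05, edgeR QL adjusted p 0.458). ST3GAL5, the sialyltransferase that turns lactosylceramide into the ganglioside GM3, was low, at 1.15, 0.73, 0.81, 1.2 and 0.55 TPM without and 0.52, 0.39, 0.48, 0.67 and 0.46 TPM with coculture. It fell by 0.62 ± 0.16 (edgeR QL adjusted p 0.00913), lower in 5 of 5 batches, with mean counts of 56.2 and 33.3 and overlapping ranges.

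Cocultivated replicate 5 was often at the edge of its group. On TMM-scaled CPM it was the highest cocultivated library for 15 and the lowest for 11 of the 34 genes, 76.5% together, where it was an extreme for 59.8% of all genes tested. Without it, 17 of the 34 genes were higher and 3 lower, and 5014 of all genes were called in either direction. Without both libraries of batch 1, a setting added after the data were seen, 17 were higher and 3 lower, with 5684 of all genes called.

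Beyond the 38 genes, 60 of 61 further genes of sphingolipid handling were found by symbol, and 45 were tested. Of these 19 rose and 7 fell (42.2% and 15.6%, median log2 fold change 0.09). Of all genes tested 17.9% were higher and 15.8% lower, so the share that fell was near that of all genes. This list too was chosen with earlier results of these data known. The 8 with the smallest p included SPTSSB. FA2H, which hydroxylates the fatty acid of ceramide, rose from 5.19, 5.41, 5.77, 4.93 and 7.07 TPM to 23.65, 25.35, 26.56, 22.21 and 32.29 TPM (2.34 ± 0.12, edgeR QL adjusted p 4.2e-08). The sphingosine 1-phosphate receptor S1PR1 stood at 6.67, 6.24, 6.39, 6.63 and 8.13 TPM without and 14.75, 13.41, 14.47, 12.74 and 14.33 TPM with coculture (1.11 ± 0.08, edgeR QL adjusted p 3.89e-07). Both had no overlap between the groups, and so had the receptor S1PR3 at 1.81 ± 0.237 and 3 ± 0.31 TPM (0.77 ± 0.08, edgeR QL adjusted p 1.47e-05). S1PR2 was not called (-0.08 ± 0.10, edgeR QL adjusted p 0.563), and S1PR4 and S1PR5, at 0.22 TPM or less, were not tested. The glycolipid transfer protein GLTP rose by 0.60 ± 0.05 (edgeR QL adjusted p 1.79e-06) from means of 34 ± 1.06 and 48.8 ± 2.11 TPM, and B3GNT5, which starts the lacto-series of glycolipids, by 0.38 ± 0.04 (edgeR QL adjusted p 9.96e-06). ALDH3A2, the dehydrogenase that oxidises the aldehyde left by the lyase, fell by 0.37 ± 0.03 (edgeR QL adjusted p 2.14e-06), with means of 106 ± 2.23 and 79.7 ± 4.95 TPM, and the sphingomyelinase relative SMPDL3B fell by 1.31 ± 0.16 (edgeR QL adjusted p 4.41e-05). With the batch as a block 21 of the 45 were higher and 9 lower, where 22.2% of all genes tested were higher and 22.2% lower. By class, 4 of 10 tested genes of glycolipid breakdown rose (6 with the block). The 2 that fell, named here after their values were seen, act outside the lysosome, the glucosylceramidase GBA2 (-0.44 ± 0.14, edgeR QL adjusted p 0.0252) and the plasma membrane sialidase NEU3 (-0.25 ± 0.05, edgeR QL adjusted p 0.00116). Of 9 tested genes of glycosphingolipid synthesis 6 rose and 1 fell, and 2 were lower with the block.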

How the data were processed

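Messenger RNA of PC3 cells was sequenced in 10 libraries. Libraries, per the labels' protocols, were made with a stranded ligation kit and sequenced on a NextSeq550. Tools named in the submitters' processing notes are RSEM 1.3.3, Bowtie2 2.4.4 and bcl2fastq. Not given in the sources used here are the strand setting, the annotation and the genome build. Per the file headers, the deposited tables hold RSEM expected counts (estimated counts, with shared reads divided by likelihood), effective lengths, TPM values and FPKM values, and FPKM were not used.

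Expected counts were rounded and analysed with edgeR 4.0.16 in R 4.3.3: filterByExpr (minimum count 10, minimum total 15), TMM factors (0.953 to 1.04), a quasi-likelihood F test of the group and Benjamini-Hochberg adjustment over all 15690 genes tested, with a threshold of 0.05. The SE of a log2 fold change was its size over the root of F. Gene levels are the deposited TPM, not TMM-scaled, with the SD over 5 libraries. Alternatives were RLE factors, library totals, no filter, DESeq2 1.42.0, limma 3.58.1 on log2(TPM + 1) and log2(TPM + 0.1), the batch as a block and leaving out libraries. The median log2 fold change of all genes was -0.009 with TMM and -0.057 on log2(TPM + 1).

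A count of 0 allows up to 3 counts, 0.0582 to 0.0768 CPM by library, which covers counting error only. Libraries of equal batch number count as pairs, since a batch is what the labels call it. Between the libraries of batches 1 to 5, deviations from the group means correlated over genes at 0.329, -0.019, 0.073, 0.104 and 0.281. The test was checked on simulated counts. Some results are not reported here.

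The members and lists were chosen with earlier results of these data known. Values of each library are given for the 12 called genes with the largest change and for the most abundant gene of each step, and 8 further pathway genes with the smallest p are named. GENCODE v29 served for overlaps and 75-base windows, and promoters are from RefSeq (GRCh38.p14).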

Additional observations from a re-analysis of the deposited data

Results flagged for a closer look

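Among 68 sets of 5 TPM values (34 tested genes in 2 groups), 3 held a library whose gap to its nearest neighbour took more than 0.71 of the range of the set. This is about what the rule gives by chance, 1 in 20. CERS4 in cocultivated replicate 5 was at 11.05 TPM where the other 4 were at 7.90 to 8.39 TPM. SMPD1 in non-cocultivated replicate 3 was at 10.6 TPM, with the others at 9.18 to 9.57 TPM. NEU1 in non-cocultivated replicate 5 was at 28.95 TPM, the others at 23.49 to 24.99 TPM.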

How the results depend on the processing

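With the batch as a block (paired libraries) 19 of the 34 genes were higher and 6 lower, with 15 and 3 in the unpaired fit, and 6965 genes were called in all, with 5279 in the unpaired fit. With library totals 6 were lower, and 12 of the further pathway genes were lower where TMM gave 7. In that setting 5771 genes were called in all. Leaving out single libraries, the count of lower genes was 2 to 5, with 5 without non-cocultivated replicate 5, where SPTSSA and SPTLC3 joined. SPTLC3 enters 6 of these fits, each time through the group where it is high, so its calls there are no support. Over the 34 genes alone the range was 1 (without cocultivated replicate 2) to 4. Over all settings run, the 15 higher genes became 11 to 19, with 11 from TPM. Of 612 values of single listed genes under these settings, 550 kept their direction and their side of the threshold, 22 passed it, 21 no longer passed it and 19 changed sign, all of the last for genes that were not called. Those were SGMS1 (-0.01 with library totals, -0.02 and -0.03 from TPM), CERK (-0.03, -0.15 and -0.16), UGCG (-0.02 from TPM with either pseudocount) and ACER2. ACER2 had -0.04 with library totals, -0.00015 without a filter, -0.03 and -0.06 from TPM, -0.06 without batch 1 and -0.04 to 0.09 over the single-library omissions. The cause of these changes was not tested. The further pathway genes named kept direction and call in all 144 values. They were picked for the smallest p in these same data, so this is no support for them. DEGS2, SMPD3 and HEXA, at 12.4 counts or less in each library, were fitted only with no filter and with DESeq2 and were not called there (DEGS2 had no adjusted p with DESeq2).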
